A study of Rattus norvegicus with 8 samples.

Results

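The genes described here encode the vacuolar proton pump (V-ATPase) and the transporters, carbonic anhydrases, receptor and transcription factor through which intercalated cells and neighbouring tubule cells handle acid and base. A list of 33 gene symbols defined them, and 32 of these had a probe set on the Clariom S rat array, out of 15037 named genes with one. The 33rd, Atp6v0a4, was not matched to a probe set and is not analysed here. By role the 32 comprise 4 pump subunits known mainly from kidney and a few other tissues, 14 pump subunits used by most cells, 2 accessory proteins of the pump and 12 acid-base genes. Each had 1 probe set, and all 32 passed the filter on low values.

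The V-ATPase moves protons out of the cytosol at the cost of ATP. Its V1 sector, on the cytosolic side, holds the A and B subunits that bind and split ATP, and its V0 sector carries the protons across the membrane. Most cells use the pump to acidify lysosomes and endosomes, whereas intercalated cells of the collecting duct also place it in their surface membrane, built with isoforms such as B1, C2, G3 and d2. Type A cells secrete acid through an apical pump and return bicarbonate through the basolateral exchanger AE1, and type B cells secrete bicarbonate through apical pendrin.

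Male Sprague-Dawley rats, 10 weeks old, gave RNA from renal cortex and outer medulla. They were controls or received ethylene glycol plus alfacalcidol during 2 weeks (called EG here), phlorizin, or EG together with phlorizin. Ethylene glycol is converted to oxalate and alfacalcidol is a vitamin D analogue, a pair used to produce calcium oxalate stones, and phlorizin blocks the sodium-glucose cotransporters SGLT1 and SGLT2. The study asked how such inhibition relates to stone formation. There was 1 array for each zone and treatment, 8 in all. The dose and route of each agent, and whether an array held RNA of several rats, are not given in the sources used here. Both zones of a treatment can come from the same kidneys.

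Values are on the log2 scale of the RMA procedure, where a difference of 1 is a 2-fold change in signal. Single arrays have no replicate, so differences between treatments within a zone carry no error and no p-value, and the number of arrays limits the precision of every value. The 23 background probes averaged 5.53 to 5.68 per array, and array medians lay between 7.39 and 7.58. The cortex EG array stood apart in its 4 poly-A spike controls, which averaged 6.42 against 7.46 to 8.23 on the others. EG differences are therefore given for each zone, and the limma fit of EG also for the outer medulla arrays alone, which leaves out that array. The dissection matched the labels, since proximal tubule markers averaged 16.74 on the control cortex array and 9.31 on the control outer medulla array. In whole tissue, fewer cells of a type and less RNA per cell cannot be told apart.

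The upstream sequences of the kidney-restricted subunits are shown first, because these genes had the largest EG differences among the pump genes, and because Foxi1, the forkhead factor of intercalated cells, is among the 32. Each line gives the 250 bases before the RefSeq transcription start in build GRCr8, written 5′ to 3′ on the gene's strand, with any copy of the forkhead core motif TGTTTAC, on either strand, in capitals.
Atp6v1b1, chr4:117781194-117781443, plus strand: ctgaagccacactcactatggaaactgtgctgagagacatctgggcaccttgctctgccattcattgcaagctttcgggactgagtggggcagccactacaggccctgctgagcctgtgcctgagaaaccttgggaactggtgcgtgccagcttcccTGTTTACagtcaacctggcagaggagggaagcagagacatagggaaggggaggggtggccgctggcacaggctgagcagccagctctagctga
Atp6v1c2, chr6:45848748-45848997, minus strand: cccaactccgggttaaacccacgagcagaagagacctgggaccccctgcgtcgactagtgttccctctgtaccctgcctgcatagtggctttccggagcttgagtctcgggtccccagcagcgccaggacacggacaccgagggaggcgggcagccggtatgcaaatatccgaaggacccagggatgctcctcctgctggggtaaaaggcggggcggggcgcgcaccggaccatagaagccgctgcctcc
Atp6v1g3, chr13:52362082-52362331, plus strand: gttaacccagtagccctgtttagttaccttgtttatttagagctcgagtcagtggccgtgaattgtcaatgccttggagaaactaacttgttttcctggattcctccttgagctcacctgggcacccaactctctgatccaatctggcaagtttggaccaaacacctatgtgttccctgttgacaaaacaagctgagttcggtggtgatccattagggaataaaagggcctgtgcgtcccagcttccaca
Of the 25 member genes with an entry in the RefSeq promoter table, only Atp6v1b1 held TGTTTAC in the 300 bases from 250 before to 50 after the start. Its copy begins at position -93. Among all 33469 promoters of that length, 3.78% held the motif, so that 1 of 25 is near the share of all promoters. Whether Foxi1 binds this copy was not tested. Atp6v1c2 and Atp6v1g3 held no such letters in this window, and Atp6v0d2 had no entry. Only the exact letters were searched, not other forms of the motif.

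EG kidneys had lower values of all 4 measured kidney-restricted subunits in both zones. Atp6v1b1, the B1 subunit whose loss causes distal renal tubular acidosis with deafness, read 13.22 in the control cortex, 10.43 with EG, 12.91 with phlorizin and 12.87 with EG and phlorizin. In the outer medulla it read 12.76, 10.42, 13.13 and 12.04 in the same order. In each zone the EG array was the lowest of the 4, and the array of EG with phlorizin stood closer to the arrays without EG. The EG differences of this gene were -2.80 in cortex and -2.34 in the outer medulla.

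Atp6v1c2, which encodes the C2 subunit of the V1 sector, was the dimmest pump gene. It read 8.70, 5.62, 8.53 and 7.60 in the cortex for control, EG, phlorizin and EG with phlorizin, and 8.50, 6.10, 8.90 and 7.85 in the outer medulla. With EG alone it lay close to the background probes (5.53 on the cortex EG array, 5.59 on that of the outer medulla), where array values change little with RNA level. Its EG differences were -3.08 and -2.40. Both EG arrays without phlorizin lay below all 6 others.

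Atp6v1g3, the kidney form of the G subunit in the stalk of the pump, had 11.24, 8.83, 10.59 and 10.43 in the cortex. Its outer medulla values were 11.54, 9.65, 11.68 and 10.27. The EG differences were -2.41 and -1.89, and the phlorizin array of the cortex already differed from control by -0.65. Atp6v0d2, the d2 subunit of the V0 sector, which osteoclasts and macrophages use too, had 12.63, 10.02, 12.27 and 11.97 in cortex and 12.96, 11.54, 13.34 and 12.69 in the outer medulla. Its EG differences were -2.62 and -1.42, the latter the smallest of the 4 genes.

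**Figure D1:**
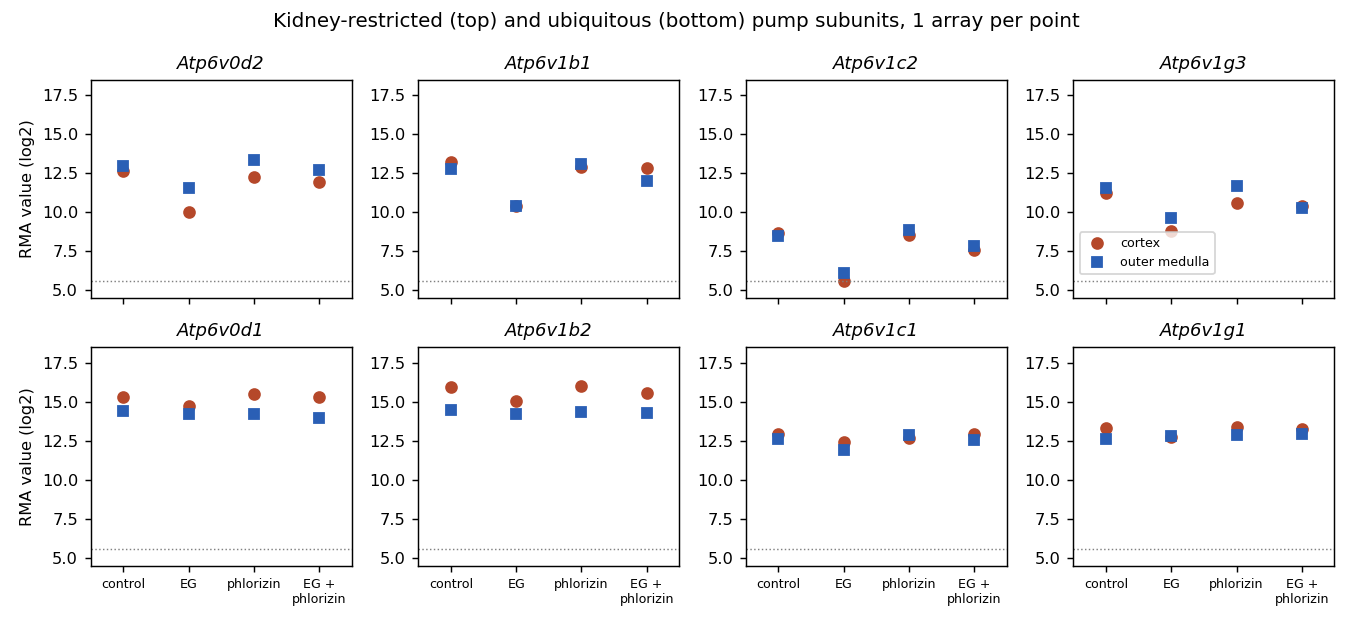
RMA value (log2, vertical axis) of the 4 kidney-restricted pump subunits (top row) and their ubiquitous counterparts (bottom row) on each of the 8 arrays. Points are single arrays without error, circles for the cortex and squares for the outer medulla, and the dotted line is the mean of the background probes. The EG arrays are the lowest in the top row, as for Atp6v1b1 (10.43 and 10.42), while Atp6v1g1 below stays between 12.65 and 13.37 on all arrays.

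The 14 ubiquitous subunits had smaller differences, similar in both sectors of the pump. In the cortex their EG differences ranged from -1.87 to 0.24 with a median of -0.62, and in the outer medulla from -1.30 to 0.14 with a median of -0.42. The medians over all 13279 tested probe sets were -0.07 and -0.05. For the 8 ubiquitous V1 subunits the medians were -0.70 and -0.54, and for the 6 of V0 they were -0.55 and -0.42.

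Atp6v1a, the catalytic A subunit, for which no kidney isoform is known, read 14.36, 13.07, 14.40 and 13.90 in cortex and 13.63, 12.74, 13.99 and 13.18 in the outer medulla, in the order control, EG, phlorizin and EG with phlorizin. The EG array was the lowest in each zone, with differences of -1.28 and -0.88 against control. Atp6v1e1, the stalk subunit E1, differed by -0.75 and -1.30 with EG, and Atp6v1h, a regulatory subunit of V1, by -0.99 and -1.15. Atp6v0b, a proton-carrying subunit of the V0 ring, read 11.09, 9.23, 10.78 and 10.77 in cortex and 10.37, 10.03, 10.28 and 9.76 in the outer medulla. Its EG differences were -1.87 in cortex and -0.34 in the outer medulla. As for every gene, the cortex value uses the array with low spike controls.

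The remaining ubiquitous subunits lay within 1 of the control in both zones. Atp6v1b2, the B2 subunit that replaces B1 elsewhere in the body, differed by -0.87 and -0.28, and Atp6v0c, the main ring subunit, by -0.67 and -0.42. Atp6v0a1, the a1 subunit of the membrane sector, was 0.24 higher in cortex and differed by -0.42 in the outer medulla. Of the accessory proteins, Atp6ap2, the (pro)renin receptor, differed by -0.96 and -0.79, and Atp6ap1 by -0.34 and -0.23.

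Each measured restricted subunit has a ubiquitous counterpart at the same place in the pump, so that the EG difference of one can be set against that of the other on the same arrays. All 4 pairs had the restricted form lower in both zones. The EG difference of Atp6v1b1 minus that of Atp6v1b2 was -1.92 in cortex and -2.06 in the outer medulla. For Atp6v1g3 against Atp6v1g1 the values were -1.83 and -2.03, for Atp6v0d2 against Atp6v0d1 -2.03 and -1.25, and for Atp6v1c2 against Atp6v1c1 -2.59 and -1.66. The ranges of the classes did not overlap in either zone. They ran from -3.08 to -2.41 against -1.87 to 0.24 in cortex. In the outer medulla they ran from -2.40 to -1.42 against -1.30 to 0.14, a narrow separation. At least 1 lower in both zones were all 4 restricted and 0 of the 14 ubiquitous subunits, against 4.44% of all probe sets. The class medians differed by -2.08 and -1.70. No test of this gap was made, since the genes were chosen with earlier results known. The ubiquitous subunits are read from most cells of the tissue, and the part of cell numbers in the gap was not tested.

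**Figure D2:**
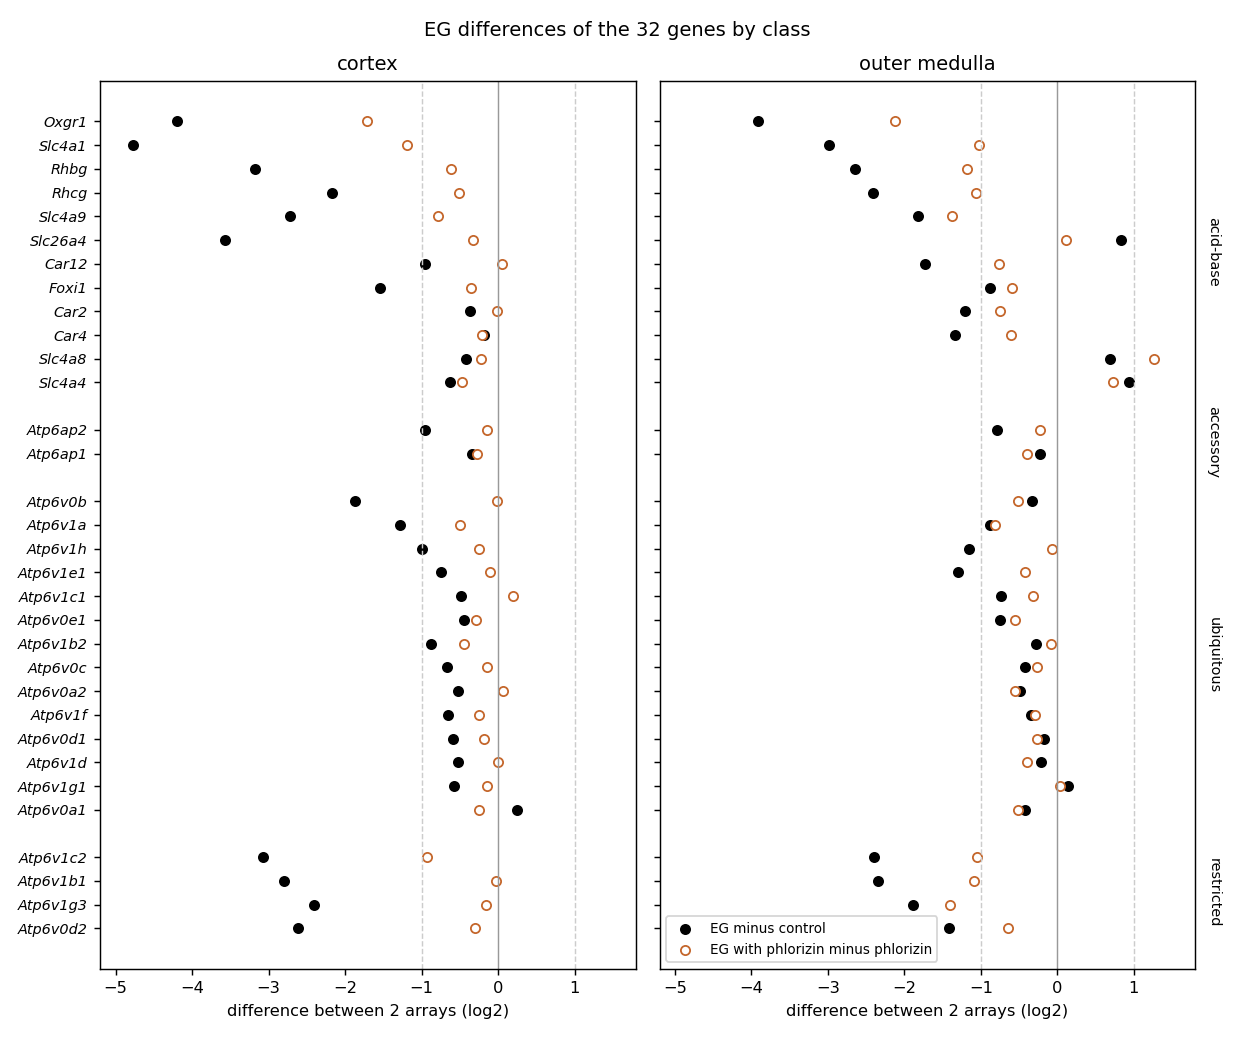
Difference between single arrays (log2, horizontal axis) for each of the 32 genes, grouped by class, in the cortex (left) and outer medulla (right). Filled points are EG minus control and open points EG with phlorizin minus phlorizin, dashed lines mark 1 in each direction, and no error can be given. The 4 restricted subunits lie between -3.08 and -1.42 without phlorizin and between -1.41 and -0.03 with it.

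Among the acid-base genes, Slc4a1, Oxgr1, Rhbg, Rhcg and Slc4a9 had the largest EG differences, joined by Slc26a4 in cortex. Foxi1 and Slc4a8, also genes of intercalated cells, had smaller ones. Slc4a1, which encodes the chloride-bicarbonate exchanger AE1 of type A cells and of red cells, read 12.70, 7.93, 12.88 and 11.69 in the cortex for control, EG, phlorizin and EG with phlorizin, and 15.96, 12.97, 16.27 and 15.24 in the outer medulla. The EG arrays were the lowest of each zone, with differences of -4.77 and -2.99, the first being the largest of any member. Of 5 tested red cell markers 3, the haemoglobin genes Hbb, Hbb-b1 and Hba-a1, were at least 1 lower with EG in both zones, against 4.44% of all probe sets. The medians of the 5 were -2.75 and -2.42. Under phlorizin those medians were 0.26 and 0.44, while Slc4a1 still differed by -1.19 and -1.03. The part of red cells in the EG difference of Slc4a1 was not tested.

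The ammonia transporter genes Rhcg and Rhbg, for the apical and basolateral steps of ammonia excretion, had a like pattern. Rhcg read 14.28, 12.11, 14.42 and 13.91 in cortex and 15.56, 13.15, 15.73 and 14.67 in the outer medulla. Rhbg read 11.66, 8.49, 11.11 and 10.50, and 13.26, 10.61, 13.21 and 12.03. For both genes the EG array was the lowest of its zone and that of EG with phlorizin the next lowest. The EG differences were -2.17 and -2.41 for Rhcg and -3.18 and -2.65 for Rhbg.

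Among genes of type B cells, Slc26a4 and Slc4a9 were lower with EG in cortex. Slc26a4, which encodes pendrin, read 12.89, 9.32, 12.50 and 12.17 in the cortex, a difference of -3.57 with EG. In the outer medulla it stayed between 5.18 and 6.005, at or below background on 3 of the 4 arrays, so no EG difference could be read there. Slc4a9, which encodes the basolateral exchanger AE4 of these cells, had 13.19, 10.47, 12.83 and 12.04 in cortex and 11.42, 9.59, 12.26 and 10.88 in the outer medulla. Its EG differences were -2.73 and -1.83, and in each zone the EG array was the lowest.

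Oxgr1, the receptor through which oxoglutarate in the tubule fluid stimulates bicarbonate secretion by type B cells, read 12.99, 8.79, 12.56 and 10.84 in cortex and 10.78, 6.86, 11.33 and 9.21 in the outer medulla. Both EG arrays without phlorizin were the lowest of their zone, with differences of -4.20 and -3.92 against control. Both arrays of EG with phlorizin lay between them and the arrays without EG. Slc4a8, a sodium-driven exchanger of the same cells, was dim in the cortex (6.79 to 7.34) and read 8.31, 9.002, 8.22 and 9.49 in the outer medulla, where both EG arrays were the higher ones.

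Foxi1, the forkhead factor without which intercalated cells do not form, read 11.59, 10.04, 10.72 and 10.36 in cortex and 12.72, 11.85, 11.99 and 11.40 in the outer medulla. Its EG differences were -1.55 and -0.88. In the outer medulla the lowest array was that of EG with phlorizin, not EG, an order not seen in Slc4a1, Rhcg, Rhbg, Slc4a9 and Oxgr1.

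Carbonic anhydrases, which interconvert carbon dioxide and bicarbonate, and the proximal bicarbonate transporter lay within 1 of the control in cortex with EG. Car2, the cytosolic carbonic anhydrase of many tubule cells and of red cells, read 16.03, 15.66, 15.78 and 15.77 in cortex and 16.72, 15.51, 16.77 and 16.02 in the outer medulla, with EG differences of -0.37 and -1.21. Car12, a membrane-bound enzyme, differed by -0.96 and -1.73, and Car4, another one found in the proximal tubule and elsewhere, by -0.18 and -1.34. Each of the 3 thus had the larger difference in the outer medulla. Slc4a4, which encodes NBCe1, the basolateral sodium-bicarbonate cotransporter of the proximal tubule, read 17.79, 17.16, 17.85 and 17.38 in the cortex. In the outer medulla it read 7.89, 8.83, 7.60 and 8.32, with the EG arrays higher. A limma fit of the EG effect in outer medulla minus that in cortex called 0 of the 32 genes after adjustment, and 0% of probe sets. At an unadjusted limma p under 0.05, 2 members had the lower EG effect in outer medulla (Car2 and Car12, against 5.88% of probe sets) and 3 the higher (Slc26a4, Slc4a4 and Slc4a8, against 6.47%). Both counts are near the shares of all probe sets and are not read as a trait of the members. This fit needs the cortex EG array, and Slc26a4 had no readable EG difference in the outer medulla.

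**Figure D3:**
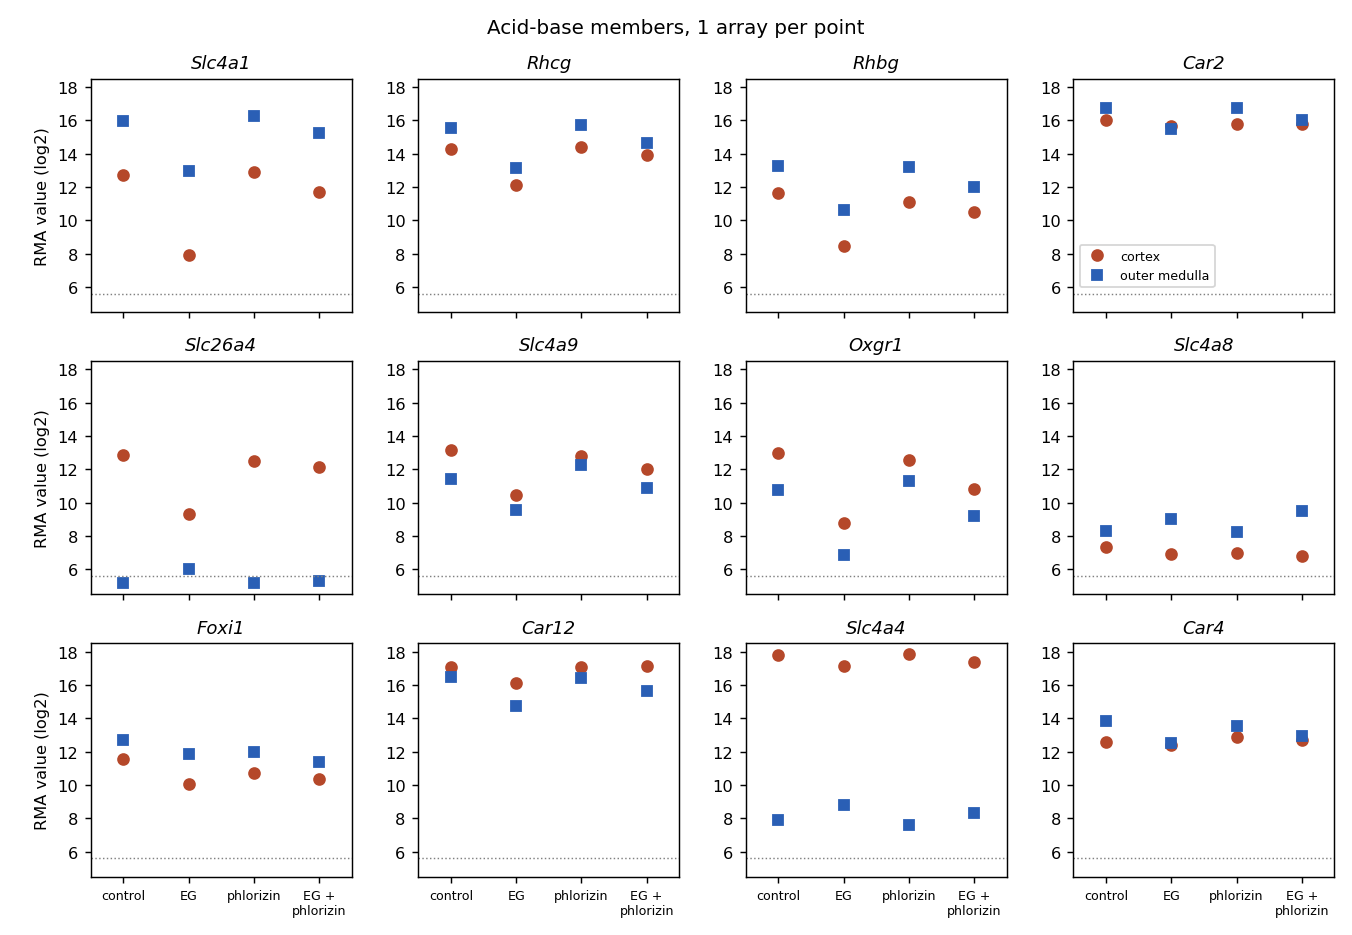
RMA value (log2, vertical axis) of the 12 acid-base genes on each of the 8 arrays, circles for the cortex and squares for the outer medulla. Points are single arrays without error, and the dotted line is the mean of the background probes. Slc4a1 drops to 7.93 and 12.97 on the EG arrays, whereas Slc26a4 in the outer medulla stays near background at 5.18 to 6.005.

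Over all 32 genes, 13 were at least 1 lower with EG in the cortex, where 12.6% of tested probe sets were, and 14 in the outer medulla, against 9.65%. In both zones 9 were, against 4.44%, namely the 4 restricted subunits, Slc4a1, Slc4a9, Rhbg, Rhcg and Oxgr1. None was at least 1 higher in either zone, against 9.62% and 8.52%. Lower by any amount in both zones were 27 of 32, against 38.9%, and the other 5 were Atp6v0a1, Atp6v1g1, Slc26a4, Slc4a4 and Slc4a8.

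EG was tested with limma on 4 profiles, each the mean of both zones of a treatment, with phlorizin as a second term. No member passed a limma adjusted p of 0.05. Of all probe sets 0% passed as lower and 0.0377% (5) as higher. At an unadjusted limma p under 0.05, 16 members were lower, against 12.9% of probe sets, and 0 higher, against 9.81%. Oxgr1 came closest, with an effect of -2.99 (SE 0.48, limma adjusted p = 0.0769), followed by Slc4a9 at -1.68 (SE 0.32, 0.0837). For the restricted subunits the limma effects were -1.87 for Atp6v1c2 (SE 0.41, adjusted p = 0.0925), -1.47 for Atp6v1g3 (SE 0.35, 0.100), -1.57 for Atp6v1b1 (SE 0.46, 0.129) and -1.25 for Atp6v0d2 (SE 0.38, 0.136). These 4 were among 23 of the 32 genes that were lower in both zones with and without phlorizin, against 22.3% of probe sets.

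The error of that fit is the unequal size of EG differences with and without phlorizin, and the outcome changed with the unit. When all 8 arrays entered singly, with treatment as random block, limma called 11 members lower, against 6.61% of probe sets, namely the 4 restricted subunits, Atp6v1a, Foxi1, Oxgr1, Rhbg, Rhcg, Slc4a1 and Slc4a9. Arrays of the same rats may count there as separate samples. With each array centred on its median 7 members were called lower, against 2.71%, and without the filter 3, against 1.0%. On the 4 outer medulla arrays alone, a fit chosen after the data were seen, limma called 3 members lower, against 0.934%. These were Oxgr1 at -3.02 (SE 0.43, limma adjusted p = 0.0381), Slc4a9 at -1.60 (SE 0.24, 0.0392) and Atp6v1g3 at -1.65 (SE 0.24, 0.0392). The other 3 restricted subunits had limma adjusted p-values of 0.0569 (Atp6v1b1, -1.72), 0.0604 (Atp6v1c2, -1.72) and 0.0931 (Atp6v0d2, -1.03). At an unadjusted limma p under 0.05, 16 members were lower there, against 13.1%, and 2 higher, Slc4a4 (0.83) and Slc4a8 (0.98). Of all 13279 probe sets 3245 passed that threshold in either direction, 1744 of them as lower. No array repeats a zone and treatment, and the labels name no separate animals. These p-values thus rest on how far arrays depart from the fitted terms and not on a spread between animals. Part of that departure may be technical.

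Under phlorizin the EG differences of most members were smaller. In the cortex 30 of 32 genes had a more negative EG difference without phlorizin than with it, against 52.5% of probe sets, in the outer medulla 23, against 52.2%, and in both zones 22, against 33.4%. Lower by any amount in both zones were 24, against 34.5%. At least 1 lower were 2 in the cortex, Oxgr1 and Slc4a1, against 1.54%, and 8 in the outer medulla, against 2.99%. Both zones held the former pair alone, against 0.316%. Those 8 were Oxgr1 and Slc4a1 together with Atp6v1b1, Atp6v1c2, Atp6v1g3, Rhbg, Rhcg and Slc4a9. Slc4a8 was the single member at least 1 higher, by 1.27 in the outer medulla, against 3.64% there and 2.42% in the cortex.

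The gap between pump classes under phlorizin depended on the zone. In the outer medulla the restricted subunits had a median EG difference of -1.07 against -0.36 for the ubiquitous ones, and all 4 pairs kept the restricted form lower. In the cortex the medians were -0.23 and -0.16, and 3 of 4 pairs had the restricted form lower. Atp6v1b1 differed there by -0.03 and Atp6v1b2 by -0.44, so that this pair went the other way by 0.41. Without Atp6v1c2 and its counterpart the cortex gap turned from -0.06 to 0.02. The difference between zones was not tested.

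Among EG rats, those given phlorizin had higher values of the same intercalated cell genes. This comparison uses the same EG arrays as EG against control. In the cortex 12 members were at least 1 higher, against 7.29%, and in the outer medulla 8, against 3.35%, all 8 of which were among the 12, against 1.14% for both zones. They were Atp6v0d2, Atp6v1b1, Atp6v1c2, Oxgr1, Rhbg, Rhcg, Slc4a1 and Slc4a9. None was at least 1 lower, against 6.16% and 4.31%. Slc4a1 was 3.76 and 2.28 higher, Atp6v1b1 2.45 and 1.62, Oxgr1 2.05 and 2.35, and Rhbg 2.01 and 1.41. The restricted subunits had medians of 1.96 in cortex and 1.38 in the outer medulla, the ubiquitous ones 0.49 and 0.02, and all tested probe sets -0.04 and 0.02. Foxi1 was 0.32 higher in cortex and differed by -0.45 in the outer medulla. Markers of other cells were higher in this comparison too. At least 1 higher, cortex first, were 5 and 5 of 10 thick limb markers (medians 1.35 and 0.91), 4 and 4 of 11 principal cell markers (0.84 and 0.63) and 4 and 4 of 5 red cell markers (2.16 and 2.69). Their part in the values of the members was not tested.

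Phlorizin alone left all 32 genes within 1 of the control in both zones, where 0.52% to 0.67% of probe sets in cortex and 0.203% to 0.58% in the outer medulla lay beyond that size in one direction. Foxi1 was the single gene at least 1.5-fold lower in both, at -0.87 and -0.74. Atp6v0a2 and Atp6v1g3 were so in the cortex, at -0.69 and -0.65, and Slc4a9 was 0.85 higher in the outer medulla. At 1.5-fold in either direction lay 3 members in cortex, against 9.28% of probe sets, and 2 in the outer medulla, against 6.35%. These counts are near the shares of all probe sets. The share at least 1.5-fold lower in both zones is not given here. In the limma fit over both EG arms, 0 members passed for phlorizin, and 0% of probe sets did in either direction. At an unadjusted limma p under 0.05, 2 members were higher, Slc4a1 and Slc4a9, against 1.53%, and 0 lower, against 2.03%.

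The zones differed for 19 of the 32 genes in the limma fit over 8 arrays with the treatment as a block. The same fit called 6809 of all 13279 probe sets, so a zone difference was common on the whole array. At an adjusted p under 0.05, 9 were higher in the outer medulla, against 32.5% of probe sets, and 10 lower, against 18.8%. Over all tested probe sets the median was 0.17 higher in the outer medulla. Of the 19 calls, 13 held without each treatment's pair of arrays, while those of Atp6v0a1, Atp6v0c, Atp6v0d2, Atp6v0e1, Atp6v1a and Atp6v1f were lost without at least 1 pair. None was lost without the EG pair, which holds the cortex EG array.

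The acid-base genes changed in both directions between zones. Slc4a1 rose by 3.82 in the outer medulla (SE 0.31, limma adjusted p = 0.000172), Rhbg by 1.84 (SE 0.17), Foxi1 by 1.31 (SE 0.17) and Rhcg by 1.10 (SE 0.16). The red cell markers were also higher there, by a median of 2.96, and their part in the value of Slc4a1 was not tested. Oxgr1 changed by -1.76 (SE 0.19, limma adjusted p = 0.000541) and Slc4a9 by -1.09 (SE 0.22), whereas Slc4a8 rose by 1.74 (SE 0.30). Slc26a4 changed by -6.31 (SE 0.69), with outer medulla values at or below background on 3 of 4 arrays. Slc4a4 had the largest difference, -9.39 (SE 0.32, limma adjusted p = 1.05e-05), alongside proximal tubule markers with a median of -8.84.

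Among the restricted pump subunits, only Atp6v0d2 passed the zone fit. Atp6v0d2 rose by 0.91 in the outer medulla (SE 0.21, limma adjusted p = 0.0123), a call lost without the phlorizin pair of arrays (0.0542). Atp6v1g3 stood at 0.51 (SE 0.23, 0.0988 by limma), Atp6v1c2 at 0.22 (SE 0.16, 0.288) and Atp6v1b1 at -0.27 (SE 0.20, 0.305). Of the 14 ubiquitous subunits 5 fell in the outer medulla and 2 rose. Atp6v1b2 fell by 1.30 (SE 0.17, limma adjusted p = 0.00129) and Atp6v0d1 by 0.98 (SE 0.18), whereas Atp6v0a1 rose by 0.71 (SE 0.16) and Atp6v0e1 by 0.61 (SE 0.16).

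**Figure D4:**
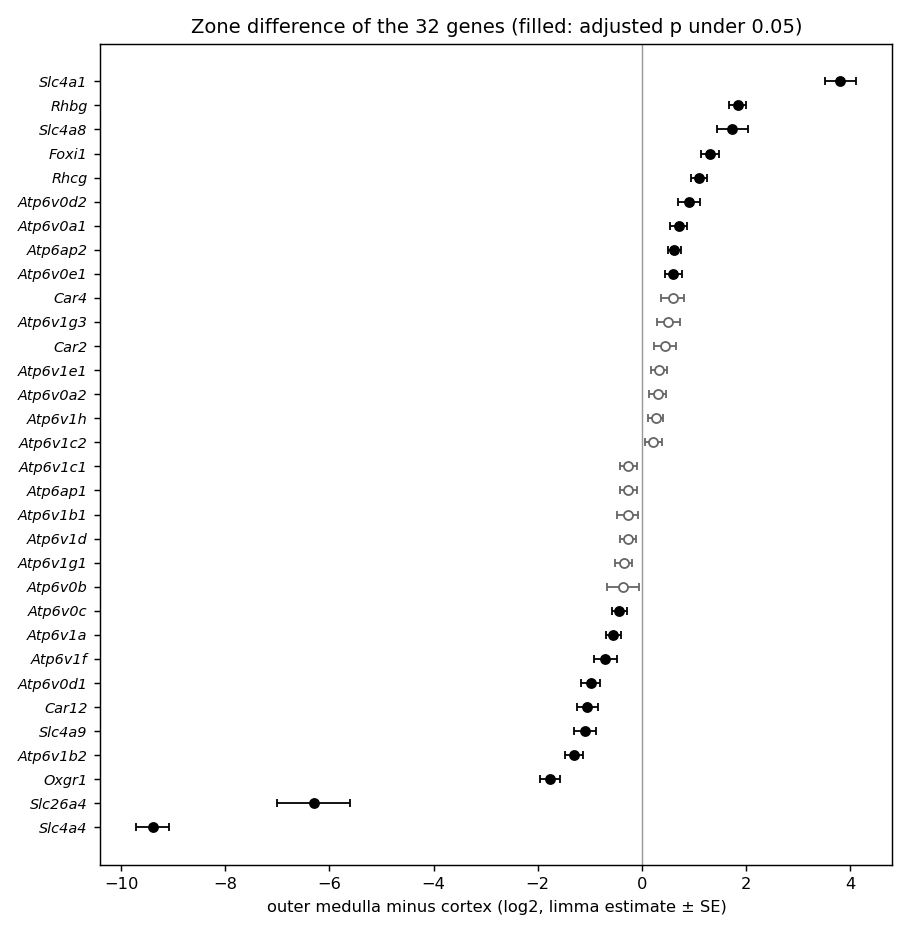
Outer medulla minus cortex (log2, horizontal axis) for each of the 32 genes, as the limma estimate over 4 pairs of arrays with its SE as bars. Filled points passed an adjusted p of 0.05, and the estimates run from -9.39 for Slc4a4 to 3.82 for Slc4a1.

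Other genes of the same pathways gave a mixed picture. Of 22 further genes known from intercalated cells 15 were tested, with median EG differences of -0.76 and -0.38. In both zones 4 were at least 1 lower, against 4.44% of all probe sets, and 0 higher, against 645 of 13279. Another 2 were at least 1 higher in the outer medulla alone, named here after their values were seen. Car15 went there from 4.74, under background, to 8.76 and Slc8a1 from 9.23 to 10.87, while in cortex they differed by -0.94 and -1.15. The 4 lower genes included Aqp6, a channel in acid vesicles of type A cells, which went from 12.35 to 9.70 in cortex and from 15.85 to 13.83 in outer medulla. Hepacam2 went from 10.98 to 8.18 and from 9.95 to 8.67, and Bsnd, the barttin subunit of chloride channels in intercalated cells and the thick limb, from 11.24 to 8.13 and from 13.04 to 9.96. Slc26a7, an anion exchanger of type A cells in the outer medulla, went from 13.35 to 8.82 there. None of the 15 passed the limma fit of EG after adjustment. At an unadjusted limma p under 0.05, 6 were lower, against 12.9% of probe sets, and 1 higher, against 9.81%.

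Of 13 further pump and assembly genes 7 were tested, with medians of -0.95 and -0.11. At least 1 lower in both zones was 1 gene, against 4.44% of all probe sets. This was Atp6v0e2, a second form of the e subunit, which went from 13.00 to 10.76 and from 10.45 to 9.36, whereas Atp6v0e1 differed by -0.44 and -0.76. Of 25 further genes of bicarbonate, proton and ammonia handling 17 were tested, with medians of -0.71 and -0.97. In both zones 4 were at least 1 lower, against the same 4.44%. Among them was Slc9a3, the apical sodium-proton exchanger NHE3, from 13.96 to 12.17 and from 16.07 to 12.52. The 1 at least 1 higher was Car3, from 6.63 to 11.19 and from 5.72 to 8.60. No gene of these lists passed the limma fit of EG after adjustment. At an unadjusted limma p under 0.05 there were 1 lower and 0 higher among the pump genes and 6 lower and 1 higher among the others. Of all probe sets 12.9% were lower and 9.81% higher at that threshold.

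Markers of neighbouring cell types moved with the same arrays. Of 11 tested principal cell markers, which share the collecting duct with intercalated cells, 3 were at least 1 lower with EG in both zones, with medians of -0.70 and -0.88. Of 10 thick ascending limb markers 6 were, with medians of -1.96 and -1.40, and of 11 proximal tubule markers 2 were, with medians of -0.73 and -0.57. Over all probe sets this share was 4.44%. The mean level of the principal cell list lay between 10.76 and 11.59 in cortex and between 12.40 and 13.44 in the outer medulla, with the EG array lowest in each zone. Lower values with EG were thus not limited to intercalated cell genes, and a difference between these cell types was not tested.

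Macrophage markers went the other way, 12 of 14 tested ones being at least 1 higher with EG in both zones, against 645 of all 13279 probe sets. Their mean level was 8.76 in the control cortex and 11.59 with EG, and 9.88 and 12.22 in the outer medulla. Macrophages use Atp6v0d2 as well, and its values were lower on those same EG arrays. The part of these cells in the values of the pump genes was not tested.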

How the data were processed

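From 8 Clariom S rat arrays the authors deposited 1 value table. Its log2 values come from RMA (named in the submitters' processing notes, without a version), and their range of 2.28 to 19.7 is the basis for reading them as log2. Of 24834 rows, 23188 were transcript probe sets and 15049 of these had a gene symbol in the platform annotation. Values were used as deposited. A probe set entered the tests if its maximum over the arrays was at least 7.48, the median of all transcript values, which left 13279. A symbol with several probe sets was represented by that with the highest mean.

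Linear models were fitted by limma 3.58.1 under R 4.3.3, with eBayes moderation, 2-sided p-values and Benjamini-Hochberg adjustment over all tested probe sets. Differences and lists were computed under Python 3.11.15 (pandas 2.3.3, numpy 2.4.6), and matplotlib 3.10.9 drew the plots. The scripts were tested on simulated data. There the limma fit of EG recovered 0.5% of changes of size 1 on the log2 scale and 92% of those of size 2. A gene not called for EG is thus not shown to be unchanged. All listed genes with a probe set are accounted for, and of the other lists up to 4 genes with the largest mean EG difference in size could be named. A further list of 18 lysosome genes is in the closing section. The genes, lists and the classes of pump subunits were chosen with earlier results of these data known. Alternatives covered normalization, filter, variance prior, size threshold, unit of the fit and omitted pairs of arrays. The test of the zone difference of EG and the fit on the outer medulla arrays alone were added after the data were seen.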

Additional observations from a re-analysis of the deposited data

Results flagged for a closer look

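In Slc4a4, Slc4a8 and Atp6v1g1, and numerically in Slc26a4, the EG difference had one sign on both cortex comparisons and the opposite sign on both comparisons of the outer medulla. A limma fit of the zone differences, 1 per treatment, tested this, and none of the 4 passed after adjustment over all probe sets. The share of all probe sets with the same sign pattern is not given here, so the pattern is not read as a trait of these genes. Slc4a4 had EG differences of -0.63 and -0.47 in the cortex and 0.93 and 0.72 in the outer medulla, without and with phlorizin. The EG effect was 1.38 higher in the outer medulla (limma adjusted p = 0.247), where the gene lay far under its cortex level. Slc4a8 had -0.42 and -0.22 against 0.69 and 1.27, an effect 1.30 higher in the outer medulla (limma adjusted p = 0.260). For Slc26a4 the fit gave 2.42 (limma adjusted p = 0.397), which cannot be read as a zone difference, because the outer medulla values were at or below background on 3 of 4 arrays. Its cortex differences were -3.57 and -0.33. Atp6v1g1 had -0.58 and -0.14 against 0.14 and 0.03, an effect 0.45 higher (limma adjusted p = 0.596). Over all 13279 probe sets 0 passed this test, while 6.47% were higher and 5.88% lower at an unadjusted p under 0.05. Groups of 1 array allow no search for outlying samples.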

How the results depend on the processing

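Counts of members apart moved with the size asked. At 1.5-fold, 22 members were lower with EG in the cortex (24.7% of all probe sets), 5 and 14 were lower with EG under phlorizin in the cortex and outer medulla (7.7% and 11.3%), and 3 and 2 were apart with phlorizin alone (9.28% and 6.35%). At least 2 apart were 6 with EG in the outer medulla (1.82%), 0 and 1 with EG under phlorizin (0.0828% and 0.264%), and 5 and 2 higher with phlorizin among EG rats (1.33% and 0.331%). In the limma fit of EG, the count of members called lower went from 0 to 11 with the 8 arrays and a random block, to 7 with median centring and to 3 without the filter or on the outer medulla arrays alone, and stayed at 0 with quantile normalization, an intensity trend, a filter on the mean or either arm alone. The members called in the zones ranged from 6 to 11 higher and 7 to 12 lower without 1 pair of arrays. The gap between pump classes under phlorizin in the cortex went from -0.0643 to 0.0190 without Atp6v1c2 and to -0.0126 without Atp6v0d2. With quantile normalization, small effects changed sign for the zone difference of EG in Atp6ap2 (-0.0299), Atp6v0c (-0.0409), Atp6v1a (-0.0507) and Atp6v1h (-0.0879), and for phlorizin in Atp6v0e1 (-0.0465) and Slc4a8 (0.0305, and 0.0476 with median centring). On the outer medulla arrays alone, a fit added after the data were seen, EG effects changed sign in Atp6v1g1 (0.0861) and Slc26a4 (0.4712), and phlorizin effects in Atp6ap1 (-0.1924), Atp6v0b (-0.1830), Atp6v0d1 (-0.2107), Atp6v0e1 (-0.1722), Atp6v1b2 (-0.0433), Atp6v1d (-0.0245), Slc26a4 (-0.3547) and Slc4a8 (0.1991), none of them past the threshold. The causes of these shifts were not tested. Pairing by replicate number could not be used, since the labels give none. The zone fits pair the arrays of a treatment. Signal over background limits Atp6v1c2 with EG and Slc26a4 in the outer medulla.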

Other observations

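The pump also acidifies lysosomes, and lysosome genes gave a different picture from the restricted subunits. Of 18 listed genes 15 were tested, and their median EG difference was -0.27 in cortex and 0.12 in the outer medulla. Ctsd, which encodes the lysosomal protease cathepsin D, went from 15.24 to 17.12 in cortex and from 15.21 to 17.47 in outer medulla. It read 16.32 and 16.40 with EG and phlorizin. Mcoln1, a lysosomal calcium channel, went from 14.77 to 13.33 and from 12.81 to 12.47. Ctsl, another protease, went from 16.86 to 16.90 and from 15.00 to 16.23. In the limma fit of EG 0 of the 15 passed after adjustment. At an unadjusted limma p under 0.05, 1 was lower, against 12.9% of probe sets, and 1 higher, against 9.81%.

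Slc38a3, which brings glutamine into tubule cells for ammonia formation, read 13.30 in the control cortex, 8.33 with EG, 13.80 with phlorizin and 12.10 with both. In the outer medulla it read 10.01, 8.57, 9.98 and 8.73. The cortex EG array was thus far below the 3 others of its zone, while in the outer medulla both EG arrays were low to a like extent. Slc9a3 in the outer medulla read 16.07, 12.52, 16.01 and 15.15.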
